A study of Mus musculus with 6 samples.

Results

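Counts were examined for the nuclear-encoded protein subunits of respiratory complexes II, III, IV and V of the mitochondrion in RNA pulled down with an antibody to N6-methyladenosine (m6A). The 48 genes were taken from the 27179 genes of the count table by name: Sdha, Sdhb, Sdhc, Sdhd, Cyc1 and every gene whose mouse symbol starts with Uqcr, Cox4 to Cox8 or Atp5, with 2 pseudogenes left out. They fell into 4 genes of complex II, 9 of complex III, 18 of complex IV and 17 of complex V, the ATP synthase. The name rule takes no account of any measured value. The RNA came from bone marrow mesenchymal stromal cells labelled P2, of mice of the C57BL/6 strain and the genotype Cxcl12-dsred/+, sorted for the red reporter DsRed carried in 1 Cxcl12 allele and against the blood and endothelial surface proteins CD45, Ter119 and CD31. All 3 groups shared this genotype, strain, P2 label and sort. Poly(A) RNA was divided into Input (6% set aside before the pull-down), RNA bound by beads with the m6A antibody (anti-m6A) and RNA bound by beads with IgG as the background control, each with 2 libraries. Bound RNA was released with free m6A nucleotide. The labels leave unsaid whether the libraries of a group came from separate mice, sorts or incubations, and the p-values below therefore cover only the scatter between these libraries, which may be technical.

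Complex II (succinate dehydrogenase) passes electrons from succinate to ubiquinone, complex III passes them on to cytochrome c, and complex IV (cytochrome c oxidase) hands them to oxygen. Complexes III and IV pump protons as they do so, and complex V lets the protons back through the inner membrane and makes ATP. Complex II is built from nuclear genes alone. Mitochondrial DNA encodes the catalytic core of complex IV, part of that of complex III and part of the membrane portion of complex V. Most nuclear genes of complexes III, IV and V encode small supporting subunits. m6A is the commonest modified base inside mRNAs and is placed on the A of short motifs, of which GGACT is among the most favoured.

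Library totals were 1278735 to 9493391 counts, with the IgG libraries the smallest, and 2723 to 12714 genes had at least 1 count in a library. The IgG libraries held few genes: 73.4% of the 11281 genes tested had no count in either of them. Levels are given as CPM, counts scaled to a common library size after adjustment by TMM, a scaling that takes most genes to be alike between libraries. Sums over marker genes are instead CPM of the unadjusted library total, without TMM. The TMM factors ran from 0.774 (anti-m6A replicate 2) to 1.21 (IgG replicate 2), so these sums are on another scale. Markers of the sorted stroma were present in all libraries (summed level 2739 to 8169 CPM), but Prrx1, Kitl and Pdgfra were at 0 in both IgG libraries. All 6 hepatocyte markers were found in the IgG libraries, where they summed to 17693 and 19375 CPM, against 45.2 and 786 CPM in Input and 336 and 357 CPM in anti-m6A. Blood markers summed to 4247 and 4284 CPM in IgG, where 5 of 9 were detected, and 378 to 697 CPM elsewhere. Ptprc, Elane and Cd79a were at 0 in all libraries, and Vpreb1 had 136 and 146 counts in anti-m6A and none elsewhere. The part of these other cell types in the subunit counts was not tested, and in bulk RNA fewer cells of a type and less RNA per cell cannot be told apart. Because PCR copies were not marked, intervals given for shares cover counting error only.

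The 43 members tested had short coding sequences, and 19 of them (44.2%) held GGACT in the coding sequence, against 75.7% of 10324 tested genes with an annotated coding sequence. Per kilobase of coding sequence the motif occurred 1.02 times in members and 1.18 times in all of these genes. Only the transcript strand was searched. The following stretches, from GENCODE's annotation of GRCm38 and written 5′ to 3′ with the motif in capitals, show 1 coding match in each of 6 transcripts that the results turn on: Cox4i1, Atp5o and Uqcrh, which rose over Input, Sdha and Uqcrc2, which fell, and Atp5pb, which had no count in IgG.
Cox4i1: ctccgccaagtgGGACTatgacaagaatg
Atp5o: cctgcagcgtccGGACTgtctcgacag
Uqcrh: atgGGACTagaggacgaacg
Sdha: tttgccttgccaGGACTtagaatttgttc
Uqcrc2: atggctctggttGGACTtg
Atp5pb: aaagaatcgcctGGACTaccacatctctg
The Cox4i1 stretch lies at chr8:120674065-120674093 (plus strand, exon 5 of 5), that of Atp5o at chr16:91931520-91931546 (minus strand, exon 1 of 7), that of Uqcrh at chr4:116074950-116074969 (minus strand, exon 1 of 4), that of Sdha at chr13:74334313-74334341 (minus strand, exon 7 of 15), that of Uqcrc2 at chr7:120649385-120649403 (plus strand, exon 8 of 14) and that of Atp5pb at chr3:105943773-105943801 (minus strand, exon 7 of 8). A coding match was present in 9 of the 27 members that rose against Input, in 2 of the 3 that fell and in 8 of the 13 that passed in neither direction. Cox6b2, which passed the count filter only through the anti-m6A libraries, is among the 9. The median coding length of these 3 sets was 267, 1362 and 825 bases, so the members that did not rise were longer and more often held the motif. A match is a description of letters, not a methylated site, and the counts are per gene and locate no site.

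Subunits of complexes II to V made up a larger share of both kinds of bound RNA than of Input. They took 1.55% and 1.56% of the counts of the Input libraries, 2.57% and 2.69% of the anti-m6A libraries and 2.77% and 2.52% of the IgG libraries. The IgG and anti-m6A ranges overlapped, so the summed share told Input from bound RNA but not the m6A antibody from IgG. Complexes III, IV and V each had this order, Input below both kinds of bound RNA. Complex III went from 0.271% and 0.294% in Input to 0.474% and 0.492% in anti-m6A, with 0.460% and 0.462% in IgG. For complex IV the shares were 0.595% and 0.566% in Input, 1.02% and 1.08% in anti-m6A and 0.985% and 0.890% in IgG. Complex V had 0.575% and 0.540% in Input, 0.969% and 0.9997% in anti-m6A and 1.10% and 0.938% in IgG. The shares of complex II overlapped between anti-m6A and Input: 0.110% (exact 95% binomial interval 0.107% to 0.112%) and 0.161% (0.158% to 0.163%) in Input, 0.104% (0.102% to 0.107%) and 0.112% (0.109% to 0.115%) in anti-m6A, and 0.221% and 0.234% in IgG. Out of the counts of all members, complex II held 7.08% and 10.3% in Input but 4.06% and 4.17% in anti-m6A.

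**Figure D1:**
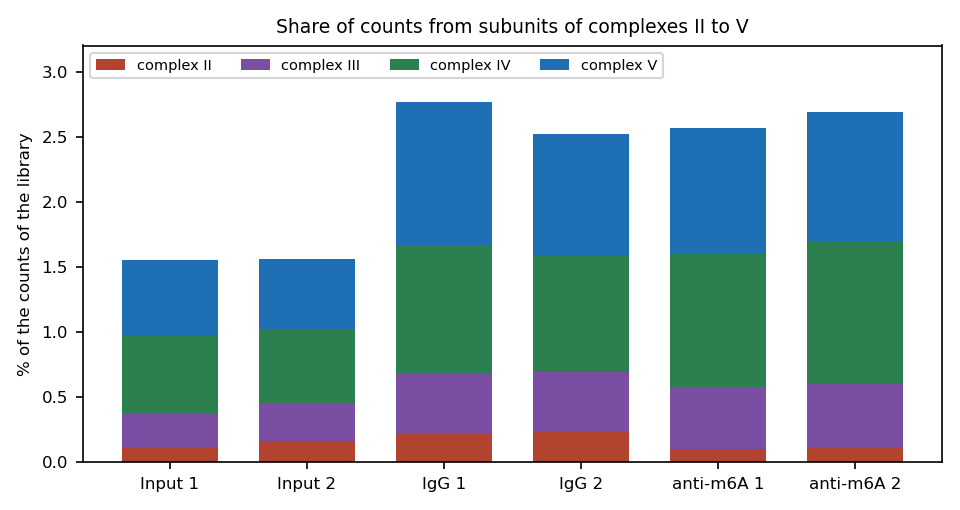
Share of each library's counts (percent, stacked bars) that came from subunits of complexes II, III, IV and V, 1 bar per library. The Input bars end at 1.55% and 1.56%, and the anti-m6A and IgG bars end between 2.52% and 2.77%.

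Against Input, 27 of the 43 members tested were higher in anti-m6A and 3 were lower (edgeR quasi-likelihood test, Benjamini-Hochberg adjusted p under 0.05 over all genes tested), where 28.0% of all 11281 genes were called higher and 20.5% lower. The median log2 change of the members was 1.34, and that of all genes 0.18. By complex, 0 of 4 members of complex II rose (0 also at an unadjusted p under 0.05 and by DESeq2) and 1 fell, 4 of 8 of complex III rose and 1 fell, 11 of 14 of complex IV rose and 1 fell, and 12 of 17 of complex V rose and none fell. The median log2 changes were -0.34 in complex II, 1.54 in complex III, 1.28 in complex IV and 1.47 in complex V. With DESeq2's size factors as scaling, 23 members were higher and 6 lower, and with library totals 21 and 6. The call rests on both anti-m6A libraries: without replicate 1 of anti-m6A, 10 members were called higher and none lower (0 at an unadjusted p under 0.05), and without replicate 2, 6 and none (1, Uqcrc2), while over all genes the higher calls fell from 3156 to 370 and 408 and the lower ones from 2308 to 72 and 93. The 5 members Atp5o, Cox4i1, Cox6a1, Uqcr10 and Uqcrb were called higher in every alternative run. Cox6b2, among the 11 of complex IV that rose, passed the count filter only through the anti-m6A libraries, where it is high. Its call is therefore a description only. Without it, 26 of 42 members were higher than Input, 24 higher than IgG and 15 above both. Of the 5 members not tested, Uqcr11, Cox7b2 and Cox8c had no count in any library, and Cox6a2 and Cox7a1 are described below with the tissue-restricted forms.

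**Figure D2:**
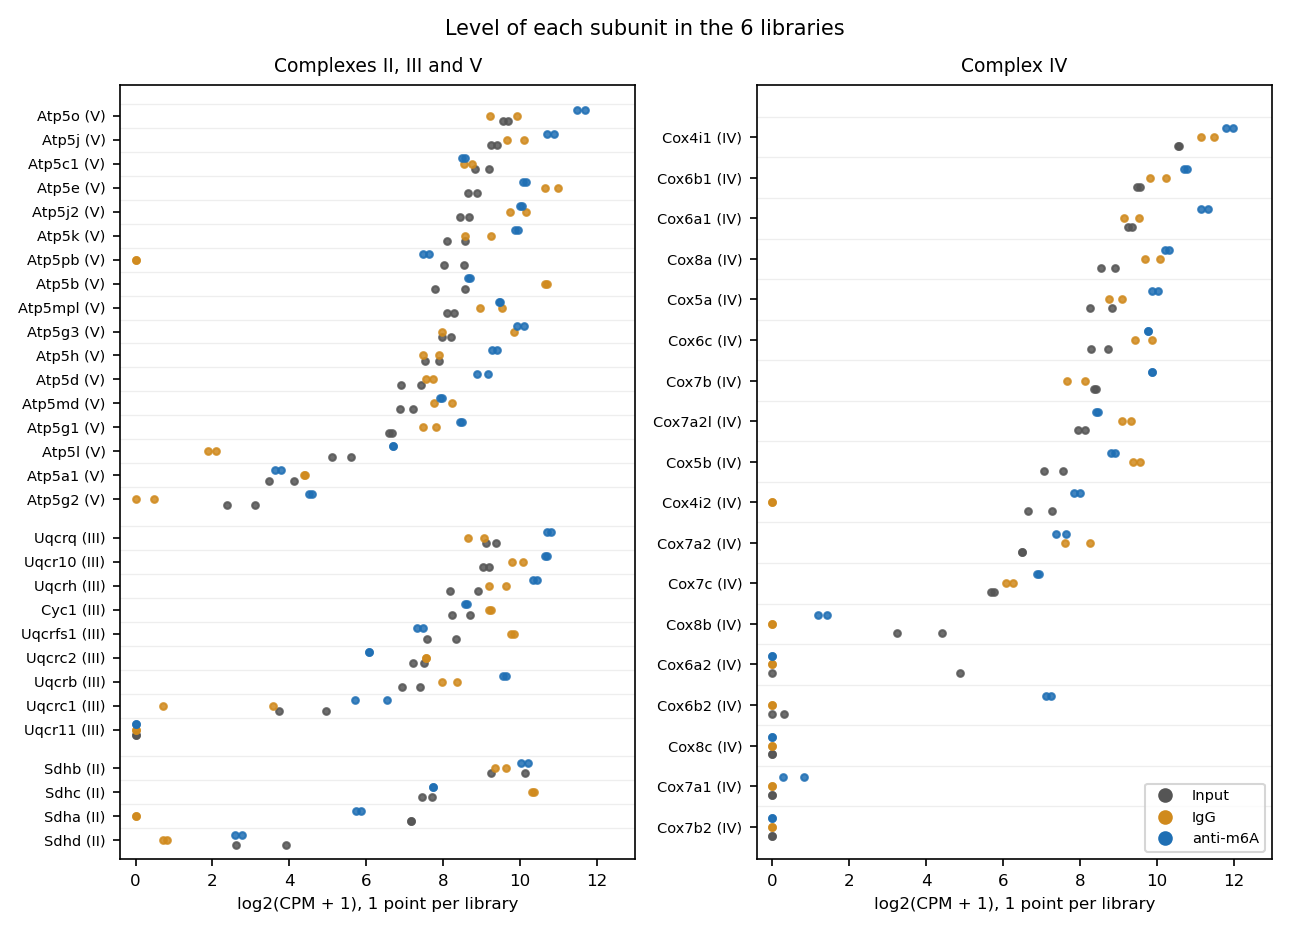
Level of each of the 48 subunits as log2(CPM + 1), 1 point per library, with Input in grey, IgG in orange and anti-m6A in blue. Genes are ordered within each complex by their Input level; most blue points of complexes III, IV and V lie to the right of the grey ones, and those of Sdha in complex II lie to the left.

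**Figure D3:**
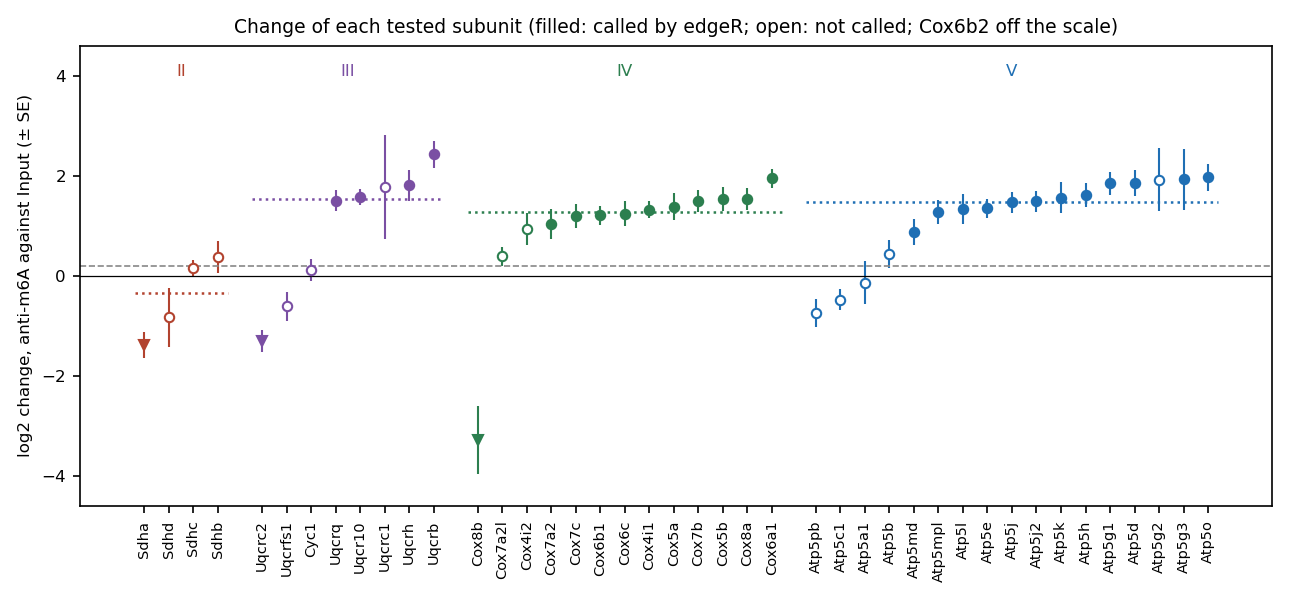
Log2 change of anti-m6A against Input (vertical axis, ± SE) for 42 tested subunits grouped by complex; Cox6b2, at 10.10, is left out. Filled points were called by edgeR and open points were not; dotted lines are the medians of the complexes, and the dashed line is the median of all genes tested, 0.18.

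In complex II, Sdha, the flavoprotein that oxidises succinate, fell. It had 1203 and 1463 counts in Input (142 and 142 CPM), 250 and 227 in anti-m6A (51.9 and 57.2 CPM) and none in IgG. The log2 change against Input was -1.38 ± 0.27 (SE), adjusted p = 0.017 by edgeR. Both anti-m6A libraries lay below both Input libraries, but the call was lost with a replicate block. Sdhb, the iron-sulfur subunit next in the electron path, had 602 and 1116 CPM in Input, 795 and 658 with IgG and 1049.9 and 1175 with anti-m6A. Its anti-m6A values overlapped with Input but lay above both IgG values. The log2 change was 0.37 ± 0.32 (SE) against Input (adjusted p = 0.388) and 0.61 ± 0.32 (SE) against IgG (adjusted p = 0.131, both by edgeR). Among the alternatives that left out no replicate, Sdhb was called higher than IgG with DESeq2's test, only these 2 groups fitted or 10 counts needed in each library. The spread of Sdhb against Input sits in the Input libraries, which differed by nearly as much as the lowest Input and the highest anti-m6A value. Both anti-m6A values lay above Input replicate 1, and only Input replicate 2 reached their range. That no member of complex II rose thus leans on Input replicate 2 for Sdhb. Sdhc, a membrane anchor, stood at 175 and 208 CPM in Input and 213 and 213 CPM in anti-m6A, but at 1326 and 1279 CPM in IgG. Its log2 change was 0.15 ± 0.17 (SE) against Input and -2.61 ± 0.18 (SE) against IgG (adjusted p = 0.00056 by edgeR), so that its highest level by far was in the IgG libraries. Sdhd, the other anchor, was scarce: 43 and 146 counts in Input, 2 and 1 in IgG and 28 and 20 in anti-m6A. In CPM that is 5.09 and 14.2 in Input and 5.81 and 5.04 in anti-m6A, at or near the lower Input value. As a share of all counts it was 5.36 times higher in anti-m6A than in IgG, with an exact 95% counting interval of 1.73 to 26.9. It was called higher than IgG (adjusted p = 0.015 by edgeR), but not without IgG replicate 1 or 2 or either anti-m6A library. The anchors, partners in 1 membrane domain, thus lay on opposite sides of IgG.

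In complex III, the 4 members that rose were the small supporting subunits Uqcrb, Uqcrh, Uqcrq and Uqcr10, with log2 changes against Input of 2.42, 1.80, 1.50 and 1.57. Uqcrb, which helps to hold the ubiquinone site, had 121 and 169 CPM in Input, 326 and 249 with IgG and 757 and 795 with anti-m6A; the groups did not overlap, and the change of 2.42 ± 0.26 (SE) against Input was the largest of the complex (adjusted p = 0.0072 by edgeR). Its mRNA has 3 near-identical pseudogene copies, so reads could have been split among them. Uqcrh, the acidic hinge protein that binds cytochrome c1, went from 290.2 and 479.5 CPM in Input to 1287 and 1399 CPM in anti-m6A, with 800.4 and 588 CPM in IgG. Neither electron-carrying subunit rose. Cyc1, cytochrome c1, had 298 and 418 CPM in Input, 612 and 587 with IgG and 378 and 394 with anti-m6A, with a log2 change of 0.11 ± 0.22 (SE) against Input (adjusted p = 0.722 by edgeR) and -0.64 ± 0.22 (SE) against IgG (adjusted p = 0.042). Uqcrfs1, the Rieske iron-sulfur protein, had 191 and 324 CPM in Input, 877 and 924 with IgG and 177 and 160.3 with anti-m6A. It was lower than in IgG, with a log2 change of -2.42 ± 0.30 (SE) (adjusted p = 0.0015 by edgeR). Its value against Input, -0.61 ± 0.29 (SE), did not pass (adjusted p = 0.137 by edgeR). Among the alternatives that left out no replicate, it was called lower than Input with DESeq2's size factors, library totals, DESeq2's test or 10 counts needed in each library.

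The core proteins Uqcrc1 and Uqcrc2, which form the matrix side of complex III, did not move together. Uqcrc2 fell against both other groups: 180.2 and 149 CPM in Input, 186 and 188 with IgG and 66.8 and 66.8 with anti-m6A. Its log2 change was -1.30 ± 0.22 (SE) against Input and -1.48 ± 0.22 (SE) against IgG (adjusted p = 0.0087 and 0.0026 by edgeR). It overlaps Pdzd9 on the genome, which had no count in any library. Uqcrc1 was low and variable, with 104 and 308 counts in Input, 28 and 1 in IgG and 248 and 367 in anti-m6A. In CPM that is 12.3 and 29.9 in Input and 51.4 and 92.5 in anti-m6A, and the log2 change of 1.77 ± 1.03 (SE) did not pass (adjusted p = 0.214 by edgeR). No member of complex III other than Uqcrc2 was called lower against Input.

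In complex IV, 10 of the 11 members that rose were subunits of the ubiquitous enzyme: Cox4i1, Cox5a, Cox5b, Cox6a1, Cox6b1, Cox6c, Cox7a2, Cox7b, Cox7c and Cox8a had log2 changes against Input of 1.04 (Cox7a2) to 1.95 (Cox6a1), each with an adjusted p of at most 0.037 by edgeR. The call of Cox7a2 was lost with a replicate block, DESeq2's size factors, library totals and 10 counts needed in each library. Cox7c was lost with library totals and 10 counts needed, and Cox6c with library totals. Cox4i1, the regulatory subunit that binds ATP, had the highest Input level per kilobase of annotated transcript of all members, 1979 CPM per kilobase. It went from 1507 and 1521 CPM in Input to 3542 and 4026 CPM in anti-m6A, with 2896 and 2266 CPM in IgG, and its change against Input was 1.32 ± 0.17 (SE) (adjusted p = 0.0072 by edgeR). Anti-m6A lay above IgG and IgG above Input, without overlap, but IgG against Input turned to -0.14 when genes needed 10 counts in each library. Cox6a1, the liver-type form of subunit 6A, rose most of these, from 608 and 650.4 CPM to 2288 and 2563 CPM, with 737 and 566 CPM in IgG. The change was 1.95 ± 0.19 (SE) against Input and 1.90 ± 0.19 (SE) against IgG (adjusted p = 0.0072 and 0.00092 by edgeR). Here the IgG values straddled those of Input, and IgG was called lower than Input with DESeq2's size factors (-0.44), DESeq2's test (-0.45) and 10 counts needed in each library (-0.86). Cox5a, which supports the proton-pumping core from the matrix side, had 305 and 458 CPM in Input, 547 and 429 with IgG and 945 and 1044 with anti-m6A. Cox5b, its zinc-binding partner, differed in its order: 133 and 188 CPM in Input, 447 and 483 CPM in anti-m6A and 761 and 672 CPM in IgG. Against Input it rose by 1.53 ± 0.24 (SE), whereas its -0.62 ± 0.23 (SE) against IgG missed the threshold (adjusted p = 0.051 by edgeR). Among the alternatives that left out no replicate, it passed with DESeq2's size factors, library totals, DESeq2's test and only these 2 groups fitted. Cox7a2l is known as a factor of supercomplexes of complexes III and IV, a role not examined in these mice. It had 247 and 282 CPM in Input, 643 and 547 with IgG and 355 and 339 with anti-m6A. Cox7a2l was thus lower than in IgG (-0.78 ± 0.19 (SE), adjusted p = 0.012) and not called against Input (0.39, adjusted p = 0.143, both by edgeR).

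Complex IV also has isoforms restricted to certain tissues. Cox6b2, the form known from testis (gene at chr7:4751792-4753094 on GRCm38), was found almost only in anti-m6A: 2 and 0 counts in Input, none in IgG and 734 and 551 in anti-m6A (152 and 139 CPM). As a share of all counts this was 950.4 times the Input level, with an exact 95% counting interval of 263 to 7856, and in mean CPM at least 93.8-fold higher than the floor of 3 counts per IgG library. No annotated gene overlaps Cox6b2 in the annotation used, no near-identical transcript was found, and the germ cell markers Cyct, Ldhc and Pgk2 were at 0 in all 6 libraries. Its ubiquitous counterpart Cox6b1 rose far less, from 759.7 and 717 CPM in Input to 1661 and 1756 CPM, with 1206 and 913 CPM in IgG. Cox4i2, the form of subunit 4 known from lung and from cells that respond to low oxygen, had 154 and 99.6 CPM in Input and 229 and 255 CPM in anti-m6A but no count in IgG. Anti-m6A was at least 156-fold above the IgG floor; the change against Input, 0.93 ± 0.32 (SE), did not pass (adjusted p = 0.078 by edgeR), although both anti-m6A values lay above both Input values. It overlaps Bcl2l1, which had no count in Input, 70 and 18 in IgG and 56 and 45 in anti-m6A. Per kilobase of transcript Cox4i2 stood at 175 CPM in Input, far under Cox4i1.

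The muscle and brown fat form Cox8b (gene at chr7:140898942-140900446) fell most of all members. It had 172 and 88 counts in Input (20.4 and 8.54 CPM), none in IgG and 8 and 5 in anti-m6A (1.66 and 1.26 CPM), a log2 change of -3.28 ± 0.67 (SE) against Input (adjusted p = 0.020 by edgeR). The groups did not overlap, but the anti-m6A level is close to what 3 counts stand for (0.622 and 0.756 CPM). It was also called higher than IgG (adjusted p = 0.018 by edgeR), but its anti-m6A level is no higher than the IgG floor and gives no fold. The ubiquitous Cox8a moved the other way, from 374 and 479 CPM in Input to 1192 and 1278 CPM in anti-m6A. Cox6a2, the heart and skeletal muscle form of subunit 6A, had 292 counts in Input replicate 2 and none in the 5 other libraries. Of 9 muscle markers, Acta1, Tnnt3, Myh4, Ckm and Myh2 were likewise higher in Input replicate 2, Myh1 was higher in replicate 1 (83 against 49 counts), and Actc1 was seen in IgG only (29 and 19 counts). Their summed level, without TMM, was 29.3 and 374 CPM in Input, 38.2 and 18.8 with IgG and 12.6 and 16.4 with anti-m6A. Of these markers 3 and 6 of 9 were detected in Input, and Myh6 and Myh7 were at 0 throughout. Cox8b did not follow them, being higher in Input replicate 1. Of 5 markers of brown fat, Ucp1, Cidea, Cpt1b and Ppargc1a were at 0 in all libraries, and Pparg, which white fat and its precursors also express, had 951 and 1371 counts in Input, none in IgG and 395 and 285 in anti-m6A. Cox7a1, the muscle form of subunit 7A, had 1 and 3 counts in anti-m6A and none elsewhere, and the testis forms Cox7b2 and Cox8c had none at all. The part of muscle cells in Cox6a2 and Cox8b was not tested.

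In complex V, 12 of 17 members rose against Input and none fell (0 at an unadjusted p under 0.05, 2 by DESeq2, Atp5c1 and Atp5pb). The 5 that passed in neither direction were the catalytic-head subunits alpha (Atp5a1), beta (Atp5b) and gamma (Atp5c1), the stator subunit Atp5pb and the c-ring gene Atp5g2. Atp5o, the stalk subunit that confers sensitivity to oligomycin, rose most, from 754 and 823 CPM in Input to 2872 and 3299.7 CPM in anti-m6A, with 968 and 595 CPM in IgG. Its log2 change was 1.97 ± 0.27 (SE) against Input and 1.98 ± 0.27 (SE) against IgG (adjusted p = 0.0072 and 0.0019 by edgeR), and IgG straddled the Input values. It has 1 near-identical pseudogene copy. The other head and stalk subunits that rose were Atp5d (delta, 1.85), Atp5e (epsilon, 1.35), Atp5h (stator d, 1.61) and Atp5j (coupling factor 6, 1.47). The membrane subunits Atp5j2, Atp5k, Atp5l, Atp5md and Atp5mpl rose by 0.88 (Atp5md) to 1.56 (Atp5k). The call of Atp5md was lost with a replicate block, DESeq2's size factors, library totals, no count filter, 10 counts needed in each library and DESeq2's test. That of Atp5l was lost with the block, size factors and library totals. Calls for Atp5h, Atp5k and Atp5l are uncertain in origin, with 3, 1 and 9 near-identical copies.

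The catalytic pair of complex V did not follow the small subunits. Atp5b, the beta subunit that makes ATP, had 377 and 221 CPM in Input, 411 and 398 CPM in anti-m6A and 1669 and 1615 CPM in IgG. Against Input its log2 change was 0.44 ± 0.28 (SE) (adjusted p = 0.250), and against IgG it fell, -2.02 ± 0.29 (SE) (adjusted p = 0.0022, both by edgeR). The IgG values thus stood well above all 4 others. Atp5a1, the alpha partner of beta in the same ring, was scarce, with 140 and 104 counts in Input, 51 and 31 in IgG and 62 and 45 in anti-m6A. In Input it had 5.39 CPM per kilobase of transcript against 156 for Atp5b, although both proteins are present in equal number in the enzyme. It overlaps Haus1 on the genome, and reads of overlapping genes cannot be told apart here. Atp5c1, the rotating gamma shaft, had 451 and 586 CPM in Input, 433 and 373 with IgG and 381 and 360.3 with anti-m6A (-0.48 ± 0.21 (SE) against Input, adjusted p = 0.113 by edgeR), with 1 near-identical copy. Among the alternatives that left out no replicate, it was called lower with DESeq2's size factors, library totals, DESeq2's test and 10 counts needed in each library. Atp5pb, the stator b subunit, had 258 and 369 CPM in Input and 198 and 176 CPM in anti-m6A but no count in IgG. Anti-m6A was at least 120.5-fold above the IgG floor, and the change against Input, -0.75 ± 0.29 (SE), did not pass (adjusted p = 0.101 by edgeR). Among the alternatives that left out no replicate, Atp5pb was called lower than Input with DESeq2's size factors, library totals and DESeq2's test. Atp5e, the epsilon subunit of the central stalk, rose against Input and yet was lower than in IgG, with 398 and 471 CPM in Input, 1082 and 1131 CPM in anti-m6A and 2049 and 1617 CPM in IgG (-0.73 ± 0.19 (SE), adjusted p = 0.015 by edgeR).

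The 3 genes Atp5g1, Atp5g2 and Atp5g3 encode the same mature c subunit of the proton-driven ring and differ in their import sequence. Atp5g1 had 101 and 95.1 CPM in Input, 226 and 178 with IgG and 349 and 356 with anti-m6A, and rose by 1.84 ± 0.22 (SE) (adjusted p = 0.0072 by edgeR). Atp5g3 rose with less certainty, from 294 and 252 CPM to 1099 and 972 CPM (1.92 ± 0.60 (SE), adjusted p = 0.049 by edgeR). The call of Atp5g3 was lost with DESeq2's size factors, library totals, no count filter, 10 counts needed in each library, and without Input replicate 2 or either anti-m6A library (adjusted p 0.0075 to 0.113 over all alternatives by edgeR and DESeq2), and that of Atp5g1 only without either anti-m6A library. The IgG libraries of Atp5g3 were far apart, at 914 and 252 CPM, 1 near anti-m6A and the other at the Input level. Atp5g2 was scarce, with 65 and 43 counts in Input, 1 and 0 in IgG and 106 and 91 in anti-m6A, and its 1.92 ± 0.63 (SE) against Input just missed the threshold (adjusted p = 0.055 by edgeR). As a share of all counts it was 66.0 times higher in anti-m6A than in IgG, with an exact 95% counting interval of 11.7 to 2621; it has 2 near-identical copies. All 3 genes had higher levels in both anti-m6A libraries than in both Input libraries. Such separation, with 2 libraries a group, is a description only, because its share over all genes was not counted.

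Against IgG, 25 of 43 members were higher in anti-m6A and 7 were lower, where 73.1% of all genes were called higher and 8.31% lower. The median log2 change was 0.80 (0.75 with members at 0 in IgG set to their bound), against 8.48 for all genes, a value set by the many genes at 0 in IgG. Most members were present in the IgG libraries: 5 of 43 (Sdha, Cox4i2, Cox6b2, Cox8b and Atp5pb) had no IgG count, against 8280 of the 11281. Among genes with a mean Input level of at least 100 CPM, 3 of 33 members had none, against 1021 of 2235 genes. By complex, 2 of 4 members of complex II were higher than IgG and 1 lower, 5 and 3 of 8 in complex III, 9 and 1 of 14 in complex IV, and 9 and 2 of 17 in complex V. Those lower were Sdhc, Uqcrfs1, Atp5b, Uqcrc2, Cox7a2l, Atp5e and Cyc1. Sdhc, Uqcrfs1 and Atp5b were called in every alternative run, whereas without replicate 1 or replicate 2 of anti-m6A only these 3 were called lower; 17 were higher without replicate 1 of anti-m6A and 12 without its replicate 2. With library totals as scaling, 17 were higher and 10 lower. Without replicate 2 of IgG, 17 were higher.

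**Figure D4:**
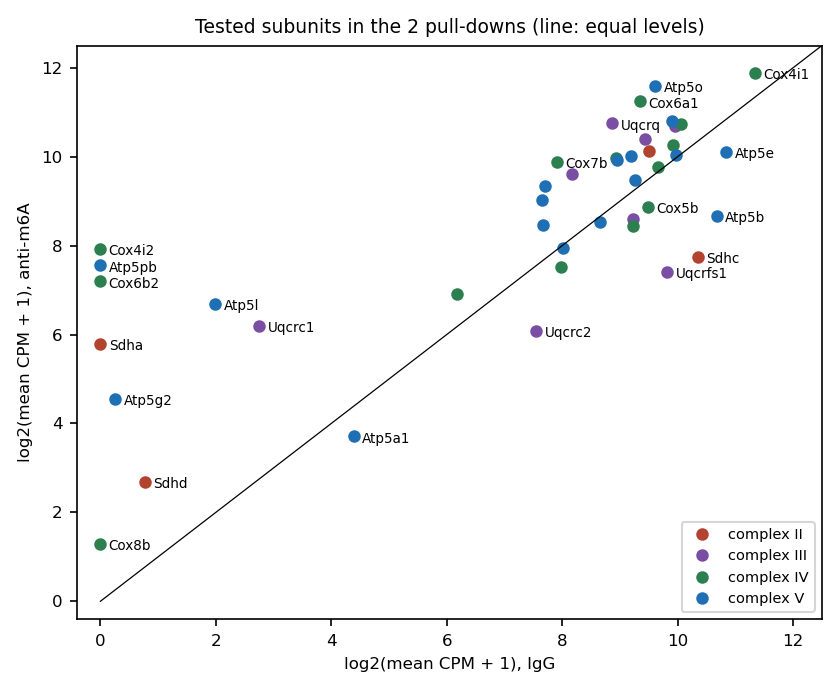
Mean level of the 43 tested subunits in the IgG libraries (horizontal axis) and in the anti-m6A libraries (vertical axis), both as log2(mean CPM + 1), coloured by complex. The line marks equal levels; 5 subunits lie at 0 on the IgG axis, and 12 lie below the line, with Sdhc, Uqcrfs1 and Atp5b among the farthest from it.

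IgG itself differed from Input for many members: 17 were higher in IgG and 7 lower, where 9.89% of all genes were called higher and 61.5% lower. The members higher in IgG were led by Sdhc (2.77 on the log2 scale), Atp5b (2.46), Cox5b (2.16), Atp5e (2.08) and Uqcrfs1 (1.81). Those lower were Sdha, Sdhd, Cox4i2, Cox8b, Atp5g2, Atp5l and Atp5pb. Atp5l had 284 and 489 counts in Input, 7 and 5 in IgG and 493 and 406 in anti-m6A. The bounds for members at 0 in IgG were at least 202-fold lower for Atp5pb, 91.6-fold for Sdha, 81.8-fold for Cox4i2 and 9.31-fold for Cox8b. With DESeq2's size factors 11 were higher and 12 lower, and with only these 2 groups in the fit 10 and 12. Only 6 were higher, and 8 lower, when genes needed 10 counts in each library. Under that filter, which left 1757 genes and moved their median from -8.23 to -0.12, Cyc1, Uqcr10 and Cox4i1 changed sign and were no longer called.

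When anti-m6A had to exceed both Input and IgG, 16 of 43 members were called, where 23.6% of all genes were. They were Uqcr10, Uqcrb and Uqcrq of complex III, Cox4i1, Cox5a, Cox6a1, Cox6b1, Cox6b2 and Cox7b of complex IV, and Atp5d, Atp5g1, Atp5h, Atp5j, Atp5k, Atp5l and Atp5o of complex V, with adjusted p from 0.011 to 0.047 by edgeR. No member of complex II was among them, and the call of Cox6b2 is again a description only. With a replicate block, 0 members and 0 of all genes were called (21 members at an unadjusted p under 0.05 by edgeR). Without replicate 1 of anti-m6A none of the members was called by edgeR (15 at an unadjusted p under 0.05) and 1 gene in all, and without its replicate 2 none (14) and 1; without replicate 2 of IgG 9 members were, and with library totals as scaling 8.

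The members that rose were mostly short. The median coding length of the 43 members was 405 bases, against 1324.5 bases over all genes with an annotated coding sequence. Among the 16 members under 300 bases, 15 rose against Input and Cox8b fell, with a median log2 change of 1.42, and the 216 genes of that length in the whole table had a median of 1.39. Cox6b2, whose call is a description only, is among the 15 and is part of the members' median. Of the 16 members of 300 to 600 bases, 11 rose and none fell (median 1.50, all 1285 genes 1.05). Of the 11 members of 600 bases or more, only Atp5o rose, and Sdha and Uqcrc2 fell (median -0.14, all 8823 genes -0.10). The medians of members and of all genes were thus close within the shortest and the longest range and further apart in the middle one. Across genes, which are not independent replicates, Spearman's rho between coding length and the change against Input was -0.30 over the 43 members and -0.20 over 10324 genes. Complex II has no member under 300 bases, and complexes III, IV and V do. In the middle range Sdhc (0.15) and Sdhd (-0.83) were not among the 11 of 16 that rose, and Sdha and Sdhb are of 600 bases or more; the difference at equal length was not tested.

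**Figure D5:**
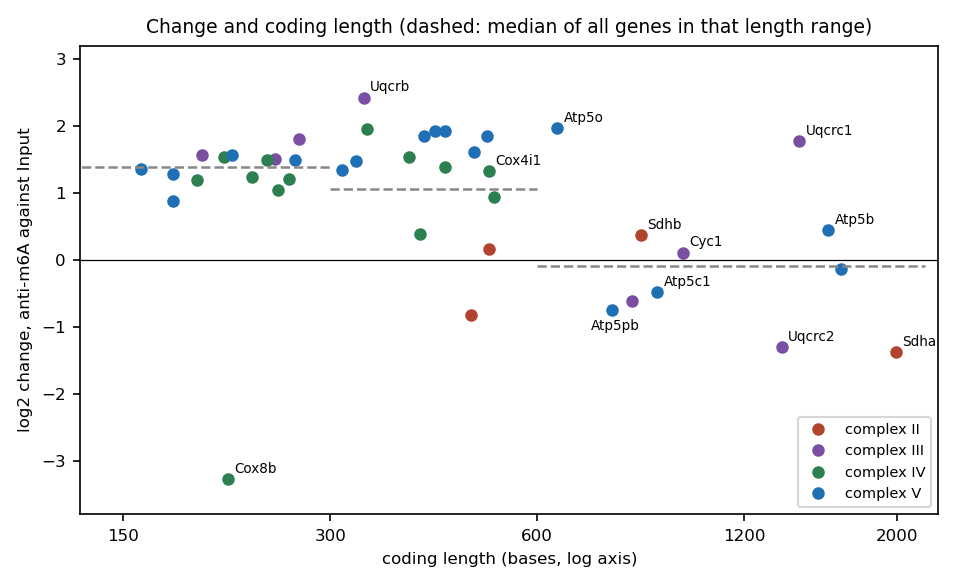
Log2 change of anti-m6A against Input (vertical axis) against coding length in bases (log axis) for 42 tested subunits coloured by complex, Cox6b2 left out at 10.10. Dashed lines are the medians of all genes under 300 bases (1.39), from 300 to 600 (1.05) and of 600 or more (-0.10).

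Other genes of the pathway were listed apart from the members. Of 34 tested assembly factors of complexes II to V, the chaperones and cofactor-inserting proteins that build them, 14 rose in anti-m6A over Input and 3 fell (median 1.18; all genes 28.0% and 20.5%, median 0.18). Taco1, among the 14, had no count in Input or IgG and 32 and 47 counts in anti-m6A. It passed the count filter only through anti-m6A, so its call is a description only. No count in either IgG library was found for 23 of the 34 (67.6%, near the 73.4% of all genes), and for 5 of the 43 subunits. Among those with a mean Input level of at least 100 CPM, 6 of 12 had none (50.0%, against 45.7% of all genes at that level). Uqcc2, which assembles complex III, had 323 and 344 CPM in Input, none in IgG and, with anti-m6A, 612 and 635 CPM. Cmc2, a complex IV factor, had 21.3 and 39.2 CPM in Input, none in IgG and, with anti-m6A, 306 and 319.7 CPM (3.37 against Input, adjusted p = 0.0072 by edgeR). Those lower than Input were Lyrm7, which guards the Rieske protein Uqcrfs1 before insertion, Cox15, which makes haem a for complex IV, and Atpaf2, the chaperone of the alpha subunit of ATP synthase. Cox18, which inserts a core subunit of complex IV, was highest in IgG, with 15.1 and 49.7 CPM in Input, 744 and 712 with IgG and 29.7 and 16.6 with anti-m6A.

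Of 39 tested subunits of complex I, the entry point for electrons from NADH, 30 rose in anti-m6A over Input and 2 fell (median 1.45), against the 28.0% and 20.5% of all genes given above. Of these subunits 23 were higher and 2 lower than IgG (all genes 73.1% and 8.31%), 17 exceeded both (23.6%) and 6 had no IgG count (73.4%). The difference between these genes and complex II was not tested. Cytochrome c (Cycs), the carrier between complexes III and IV, had 26.9 and 16.3 CPM in Input and 24.3 and 28.0 CPM in anti-m6A and was not called (0.28, adjusted p = 0.641 by edgeR). Ndufa4, now assigned to complex IV, rose by 1.32 ± 0.23 (SE) (adjusted p = 0.0091 by edgeR). Of 9 tested regulators of respiratory genes, Nrf1 and Pprc1 were higher than Input, and Yy1 and Lrpprc lower, shares near those of all genes. Lrpprc, which stabilises mitochondrial mRNAs, had 359 and 267 counts in Input, none in IgG and 21 and 14 in anti-m6A. The inhibitor of ATP synthase, listed under its older symbol Atpif1 and so outside the name rule, had 10630 and 11619 counts in Input, 3153 and 1391 in IgG and 17180 and 15338 in anti-m6A.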

How the data were processed

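The deposited table holds unnormalised read counts, 1 row for each Entrez gene number and 1 column for each library. Per the submitters' processing notes, Picard, featureCounts, edgeR 3.38.1 and mm10 were used; their aligner and annotation: not given in the sources used here. Per the labels' protocols, libraries were made by Smart-seq2, a method that marks neither molecules nor strand. Symbols came from RefSeq (GRCm38.p6; 25275 of 27179 numbers matched).

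Counts were fitted in R 4.3.3 with edgeR 4.0.16 (limma 3.58.1): filterByExpr (minimum count 10, total 15), TMM, 1 quasi-likelihood fit of 3 group means (3 residual degrees of freedom), Benjamini-Hochberg over 11281 genes, threshold 0.05. Exceeding both groups used the larger one-sided p. The SE is the log2 change over the square root of F. The fit was tested on simulated data. DESeq2 1.42.0, other scalings and filters, a replicate block and left-out libraries were alternatives. Coding lengths and sequences came from GENCODE on GRCm38; copies had at least 95% identity over 50% of the length (blastn 2.17.0). Groups at 0 were set to a floor of 3 counts per library.

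The members and lists were chosen with earlier results of these data known. Every member could be named; values per library were given for the 2 highest and 2 lowest changes per complex, core subunits, tissue-restricted isoforms, members called lower anywhere, Cox7a2l and the inhibitor; other genes, among them Cox6b1, Cox8a, Uqcc2, Cmc2, Cox18 and Lrpprc, were chosen after their values were seen.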

Additional observations from a re-analysis of the deposited data

How the results depend on the processing

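No called change of a member in anti-m6A against Input or IgG reversed in the alternatives run. For IgG against Input, 3 called members reversed with 10 counts needed in each library (Cyc1 -0.15, Uqcr10 -0.076, Cox4i1 -0.14), as did the uncalled Uqcrc2 (-0.71) and Cox6a1 (-0.86; -0.44 with size factors, -0.45 with DESeq2's test), which were called lower there. Counts over members moved as follows. Leaving out 1 library at a time, where the lone library of a group is taken to vary like the other groups, members higher than Input ranged from 6 to 30 (27 with all libraries), lower from 0 to 8 (3), higher than IgG from 12 to 26 (25), lower than IgG from 3 to 9 (7), higher in IgG than Input from 13 to 20 (17), lower from 6 to 10 (7), and above both from 0 to 21 (16); without Input replicate 1, 8 members were lower than Input. Members lower than Input were 6 with DESeq2's size factors, 6 with library totals and 6 with DESeq2's test. With 10 counts needed in each library, 4 were lower than IgG and 6 higher in IgG than Input. IgG against Input gave 11 higher and 12 lower with size factors, 15 lower with DESeq2's test, and 10 higher and 12 lower with only these 2 groups fitted. Above both were 8 with library totals. The median of all genes against Input moved by -0.40 with size factors and by -0.51 with library totals. The median of complex II minus that of all genes was -0.52 (-0.88 to -0.27 without 1 library, -0.14 with 10 counts needed, where 2 genes were left, -0.69 with DESeq2's test), and that of complex IV 1.10 (0.82 to 1.27; 0.91 and 0.91). The cause was not tested. The difference between replicates 1 and 2 of a group, in log2 CPM per gene, was correlated between groups. Pearson's r was 0.041 for Input and IgG, 0.086 for Input and anti-m6A and 0.0997 for IgG and anti-m6A. Correlations this small cannot show whether libraries of the same number were paired. The replicate numbers were not taken as pairs because the labels do not say that a number marks a shared animal or day. With the replicate block, 24 members were higher and 1 lower than Input and 0 above both (0 of all genes; 21 members at an unadjusted p under 0.05 by edgeR), with complex medians of -0.64 (II) and 0.93 (IV); Sdha and Cox8b were no longer called.

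The IgG libraries were the shallowest, and the floor of 3 counts there is 1.16 and 1.94 CPM.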

Other observations

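Cox6b2 lies between Kmt5c and Fam71e2 in the RefSeq gene order of GRCm38.p6. Kmt5c, a histone methyltransferase gene, had 93 and 64 counts in anti-m6A and none in Input or IgG, and Fam71e2 had none in any library. These neighbours were looked at after the values of Cox6b2 were seen.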
